A study of Mus musculus with 6 samples.

Results

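A set of 9 genes for adhesion receptors at the cell surface was followed in mouse L929 fibroblasts: the integrin alpha subunit genes Itga3, Itga5, Itga6 and Itgav, the integrin beta subunit genes Itgb1, Itgb3 and Itgb5, and the genes Icam1 and Vcam1 for cell adhesion molecules of the immunoglobulin superfamily. They were taken by gene symbol, and all 9 symbols were found once each among the 54532 genes of the count table. The treated group was L929 cells of genotype WT given TNF-α at 10 ng/ml together with actinomycin D at 1 µg/ml for 12 hours, and the control group was L929 cells of genotype WT labelled Control, with 3 libraries in each group. The treatment text of the labels stands on the control samples too, so the groups rest on the titles and the treatment label. Actinomycin D blocks transcription, and TNF-α is a cytokine of inflammation. There was no group with either agent by itself, so differences are those of both agents together. L929 is an established fibroblast line, and the labels do not tell whether replicates were separate cultures. The p-values therefore reflect library-to-library spread, which may be technical.

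Integrins are heterodimers of an alpha and a beta subunit that bind extracellular matrix outside the cell and, through talin and kindlin on the beta tail, actin inside it. Alpha 5 pairs with beta 1 to bind fibronectin, alpha 3 and alpha 6 pair with beta 1 to bind laminins, and alpha v pairs with beta 1, beta 3 or beta 5 to bind vitronectin, fibronectin and other ligands. ICAM1 and VCAM1 are counter-receptors by which stromal and endothelial cells hold leukocytes, ICAM1 through beta 2 integrins and VCAM1 through alpha 4 integrins, and both genes are widely used as readouts of NF-κB activity after TNF.

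The promoters of the alpha subunit genes whose shares differed most between the groups (Itga5 and Itgav), of the most abundant member (Itgb1) and of Icam1 are shown first. Each is the 250 bases before the start annotated by RefSeq on GRCm38.p6, read 5′ to 3′ on the strand of the gene. Capitals mark a κB-type motif (GGANNTTCC) and GC boxes (GGGCGG, or CCGCCC on the other strand). The windows are chr15:103366792-103367041 on the minus strand for Itga5 and, on the plus strand, chr2:83724147-83724396 for Itgav, chr8:128685404-128685653 for Itgb1 and chr9:21015690-21015939 for Icam1.
Itga5: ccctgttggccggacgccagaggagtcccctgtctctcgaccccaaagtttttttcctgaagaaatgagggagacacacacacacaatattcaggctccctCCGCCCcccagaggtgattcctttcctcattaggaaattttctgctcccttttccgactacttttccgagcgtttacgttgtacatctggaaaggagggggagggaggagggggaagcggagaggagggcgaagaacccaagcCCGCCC
Itgav: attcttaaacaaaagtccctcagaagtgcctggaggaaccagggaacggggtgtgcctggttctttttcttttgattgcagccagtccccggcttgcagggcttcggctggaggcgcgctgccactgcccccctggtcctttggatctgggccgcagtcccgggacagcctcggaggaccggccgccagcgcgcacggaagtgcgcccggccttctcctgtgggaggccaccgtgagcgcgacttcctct
Itgb1: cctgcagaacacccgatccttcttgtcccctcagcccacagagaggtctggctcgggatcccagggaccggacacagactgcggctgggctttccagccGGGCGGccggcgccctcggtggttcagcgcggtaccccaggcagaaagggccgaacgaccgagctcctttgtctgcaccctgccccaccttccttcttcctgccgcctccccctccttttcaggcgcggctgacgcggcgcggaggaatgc
Icam1: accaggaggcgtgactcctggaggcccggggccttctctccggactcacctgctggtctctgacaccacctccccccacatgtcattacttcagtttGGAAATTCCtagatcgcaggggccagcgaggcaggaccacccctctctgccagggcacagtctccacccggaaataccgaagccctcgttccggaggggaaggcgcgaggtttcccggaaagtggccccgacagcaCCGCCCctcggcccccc
RefSeq windows were matched for 6 of the 9 members, Itga3 with 2 starts, and Itga6, Itgb3 and Vcam1 are named only. The κB-type motif lay in the Icam1 window alone among the 7 windows, starting 153 bases before the start, and 3.59% of 32851 promoter windows of this length hold it on either strand. At least 1 GC box lay in every member window except that of Itgav, against 32.7% of all windows. An AP-1 site (TGANTCA) and a TATA box (TATAAA), held by 6.75% and 12.4% of all windows, were in none of the 7. A match of letters is a description and not a binding site.

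Library totals ran from 16448477 to 17705511 counts in treated libraries and from 16056207 to 18036322 in control libraries, and 15705 to 18849 genes against 19219 to 20116 genes had a count. The first principal component held 86.8% of the variance and separated the groups, with treated replicate 3 nearest the controls. Levels are CPM, the count scaled to a common library total, with TMM factors, which set the bulk of genes equal between libraries. These factors were 0.640 to 0.797 in treated and 1.34 to 1.53 in control libraries, and by library size alone the log2 fold change of the median gene moves by −1.04. With the quasi-likelihood test of edgeR, and p-values adjusted over all genes (Benjamini-Hochberg, threshold 0.05), 74.8% of 13290 tested genes were called, 34.6% higher and 40.2% lower, and the median log2 fold change was −0.18. Of 12 fibroblast markers 11 could be tested, 8 called higher and 3 lower, or 6 and 3 by library size alone and 0 and 9 with ribosomal protein genes held equal. Col1a2, a collagen gene, averaged 5940 CPM in treated and 1805 CPM in control libraries, Pdgfra and Pdgfrb, for receptors of platelet-derived growth factor, were lower (−1.61 and −0.93), and Thy1 had 0 and 6 counts over the groups. The defining markers of leukocytes (Ptprc, 0 and 1 counts), endothelium (Cdh5, 4 and 12) and epithelium (Epcam, 0 and 0) were at or near 0 over the treated and the control libraries. The summed CPM of the 10 leukocyte markers was 153 to 218 in treated and 48.1 to 67.8 in control libraries. Lyz2 (log2 fold change 3.72) and Itgb7, which is also a leukocyte marker, were the called ones. Itgb7 alone made most of that sum, with 124 to 170 CPM in treated and 39.2 to 54.3 CPM in control libraries. The 7 endothelial markers summed to 0 to 0.457 CPM in treated and 0.327 to 0.579 CPM in control libraries and none could be tested. The 6 epithelial markers summed to 24.8 to 36.7 CPM in treated and 5.10 to 6.49 CPM in control libraries. Itgb4, the single tested one, was called higher (2.40). It made nearly all of that sum, with 23.7 to 35.5 CPM in treated and 4.82 to 6.16 CPM in control libraries. The part of these values in the results was not tested.

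Among the 9 receptor genes, 7 had enough counts to be tested, and Icam1 and Itgb3 did not pass the filter on low counts. Of the 7, 3 were called higher (Itga3, Itgb1 and Itgb5), 2 were called lower (Itga5 and Itga6) and 2 were not called (Itgav and Vcam1), so 5 of 7 were called where the background was 74.8%. CPM values of treated and control libraries did not overlap for 6 of the 7, against 77.9% of all tested genes. Both shares are close to the background and say nothing particular to these receptors. Itga5 was the single member both called and at least 4-fold lower, as were 17.9% of tested genes. By direction, 3 of 7 higher and 2 of 7 lower stand beside 34.6% and 40.2% of all genes, and the mix is that of the TMM scale: by library size alone 0 were higher and 5 lower. In RNA pooled over cells, less of a transcript in every cell and fewer cells that hold it cannot be told apart.

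**Figure D1:**
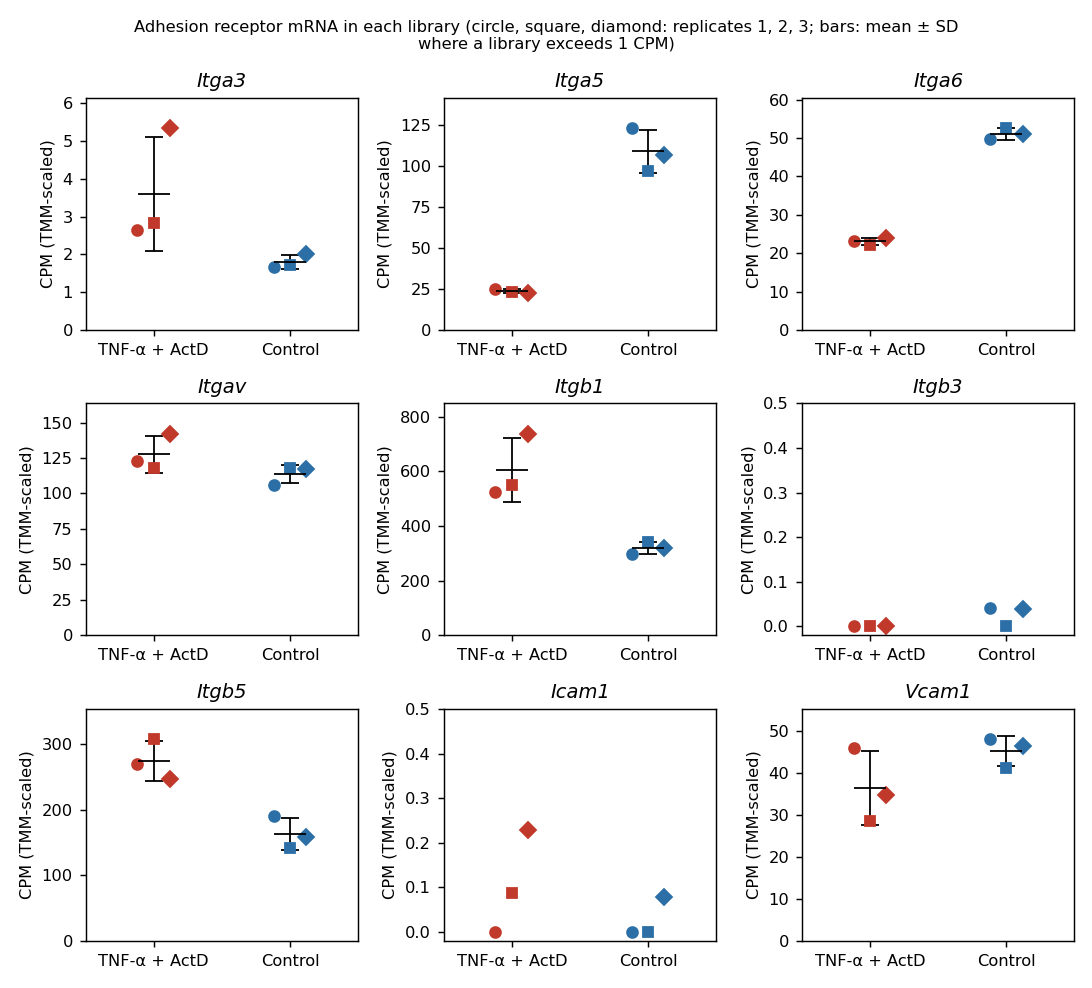
TMM-scaled CPM of each receptor gene (linear axes) in the 3 libraries of cells given TNF-α and actinomycin D (left) and the 3 control libraries (right), with bars for mean ± SD where a library exceeds 1 CPM. Itga5 lies at 22.6 to 24.8 CPM in treated and 97.0 to 123 CPM in control libraries, Itgb1 is higher on this scale in treated libraries (but not by library size alone), and Icam1 and Itgb3 lie near 0 in both.

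Itga5, the alpha subunit of the main fibronectin receptor, lies on chromosome 15 from 103344286 to 103366763 on the minus strand, with 30 exons in its longest principal transcript (GENCODE, GRCm38). It had 24.8, 23.4 and 22.6 CPM in treated replicates 1 to 3, against 123, 97.0 and 106 CPM in control replicates 1 to 3. Every treated library lay far below every control library. The raw counts were 281, 265 and 296 in treated and 2972, 2376 and 2695 in control libraries. Itga5 fell by 2.21 ± 0.16 (SE) on the log2 scale, 4.61-fold lower, with an edgeR adjusted p of 8.8e-07. It was called lower under every alternative scaling, filter and tool and without any single library, with changes from −1.92 to −4.59.

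Itga6, a laminin receptor subunit, lies on chromosome 2 from 71745616 to 71858416. It had 23.3, 22.1 and 23.9 CPM in treated libraries, against 49.7, 52.6 and 51.0 CPM in control libraries. The groups did not overlap and were tight, with SDs of 0.947 and 1.46 CPM. The log2 fold change was −1.14 ± 0.16 (edgeR adjusted p = 5.5e-05). Taking out the trend of fold change with gene length reduced the change to −0.39 (edgeR adjusted p = 0.045), and with a replicate block added the call was lost (−0.38, edgeR adjusted p = 0.099).

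Itgav, the alpha v subunit gene, lies on chromosome 2 from 83724397 to 83806916 and, at 10744 bases, is the longest of the 9 by deposited gene length. It had 123, 118 and 142 CPM in treated libraries, against 106, 118 and 117 CPM in control libraries. Treated replicate 2 and control replicate 2 were nearly equal, at 117.96 and 117.63 CPM. The log2 fold change of 0.17 ± 0.14 did not pass (edgeR adjusted p = 0.31). The call depended on the fit: Itgav was lower by library size alone (−0.87, edgeR adjusted p = 0.0026) and higher once the gene length trend was taken out (1.05, edgeR adjusted p = 7.6e-05). Pseudogene and antisense models that overlap Itgav had at most 3 counts in any library.

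Itga3, a laminin receptor subunit gene on chromosome 11 from 95044474 to 95076801, was by far the scarcest of the alpha members. It had 2.65, 2.83 and 5.34 CPM in treated libraries, against 1.65, 1.71 and 2.01 CPM in control libraries, from 30 to 70 counts a library. Treated replicate 3 stood well above the other 2. Itga3 rose by 1.01 ± 0.37 on the log2 scale (edgeR adjusted p = 0.027), but without treated replicate 3 the change was 0.56 and the call was lost (edgeR adjusted p = 0.16). The call was also lost without control replicate 1, 2 or 3 (edgeR adjusted p = 0.089, 0.088 and 0.068), with no filter (0.073) and by library size alone (0.01, adjusted p = 0.99), and the direction turned with ribosomal protein genes held equal (−1.30).

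Itgb1, the partner of alpha 3, alpha 5, alpha 6 and alpha v, was the most abundant receptor gene and lies on chromosome 8 from 128685654 to 128733200. It had 525, 552 and 738 CPM in treated libraries, against 297, 341 and 320 CPM in control libraries. All treated libraries were above all control libraries on this scale, replicate 3 most. Itgb1 rose by 0.92 ± 0.17 on the log2 scale (edgeR adjusted p = 6.0e-04). By library size alone the values were 336, 364 and 588 CPM in treated and 399, 520 and 465 CPM in control libraries. There the groups overlapped and the change was −0.10 (edgeR adjusted p = 0.68).

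Itgb5, the beta 5 subunit that pairs with alpha v, lies on chromosome 16 from 33829665 to 33949338. It had 270, 307 and 246 CPM in treated libraries, against 190, 141 and 158 CPM in control libraries. The groups did not overlap. Itgb5 rose by 0.75 ± 0.16 on the log2 scale (edgeR adjusted p = 0.0016), a direction that turned by library size alone (−0.29, edgeR adjusted p = 0.047).

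Itgb3, the beta 3 subunit known from platelets and osteoclasts and on chromosome 11 from 104608000 to 104670476, was hardly detected. It had no count in any treated library and 1, 0 and 1 counts in control libraries. A count of 0 over the treated group allows up to 0.0584 CPM by library size (3 counts of 51331947), and 2 counts lie below that floor in the control group, so no fold is given. These limits cover counting error only.

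Icam1, on chromosome 9 from 21015985 to 21028817, was likewise at the edge of detection in both groups. It had 0, 1 and 3 counts in treated libraries, against 0, 0 and 2 counts in control libraries. The ratio over the groups by library size was 2.01 with a 95% counting interval of 0.288 to 22.2, so no difference was detectable at this depth. An antisense model that overlaps Icam1 (Gm47079) had 4 counts in treated replicate 3 and 0 elsewhere. The use of strand in counting was not stated, so such reads cannot be told apart from those of Icam1.

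Vcam1, on chromosome 3 from 116109949 to 116129688, was present in both groups. Its antisense model Gm43109 had 9 counts in treated replicate 1, 7 in control replicate 2 and 0 elsewhere. It had 45.9, 28.7 and 34.7 CPM in treated libraries, against 48.1, 41.2 and 46.5 CPM in control libraries. Treated replicate 1 lay within the control range and the other treated libraries below it. The log2 fold change of −0.31 ± 0.20 did not pass (edgeR adjusted p = 0.17). Without treated replicate 1 it was called lower (−0.60, edgeR adjusted p = 0.0061), and likewise by library size alone (−1.36, edgeR adjusted p = 0.00034) and with no filter (−0.47, edgeR adjusted p = 0.047). Once the gene length trend was taken out, the value was 0.44 and did not pass (edgeR adjusted p = 0.068).

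Levels per length were compared between genes as TMM-scaled CPM per kilobase. In treated libraries the order was Itgb1 (148), Itgb5 (77.2), Itgav (11.9), Itga5 (4.78), Vcam1 (4.11), Itga6 (2.56) and Itga3 (0.631), where Itga5 and Vcam1 overlapped. In control libraries it was Itgb1 (78.3), Itgb5 (45.9), Itga5 (22.0), Itgav (10.6), Itga6 (5.66), Vcam1 (5.10) and Itga3 (0.314), with no overlap between neighbours. Beta subunit transcripts thus outnumbered those of the alpha members in both groups. The 4 alpha members summed to 0.0953, 0.0842 and 0.0855 of the 3 beta members in treated libraries, against 0.321, 0.298 and 0.313 in control libraries. This ratio within a library does not depend on library scaling. It was not adjusted for the trend of fold change with gene length, and the alpha members include the longest genes. With that trend taken out, the log2 fold changes of Itgav and Itga6 were 1.05 and −0.39 rather than 0.17 and −1.14, while those of Itgb1 and Itgb5 were 0.96 and 0.63 rather than 0.92 and 0.75.

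The shares of the alpha transcripts did not overlap between the groups, and a share within a library does not depend on scaling. Itgav made 58.6, 58.8 and 61.8% of the summed count per length of the 4 alpha members in treated libraries, against 24.4, 29.8 and 28.4% in control libraries. Itga5 made 25.8, 25.4 and 21.4% in treated libraries, against 61.4, 53.5 and 56.0% in control libraries. By count per length the leading alpha transcript was therefore Itgav in all 3 treated libraries and Itga5 in all 3 control libraries. The control order depended on dividing by length. In raw counts Itga5 led Itgav in control replicate 1 (2972 against 2570). Itgav led in control replicates 2 and 3 (2881 against 2376 and 2974 against 2695). Itga6 made 12.9% ± 0.45 in treated and 14.7% ± 1.2 in control libraries (SD, n = 3 each), and Itga3 made 3.13% ± 1.1 and 0.816% ± 0.10. By exact two-sided permutation each of the 4 gave p = 0.1, the smallest that 3 against 3 allow, and 0.175 after Benjamini-Hochberg adjustment over 7 shares.

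Among the beta members, Itgb1 made 62.9, 61.0 and 72.3% in treated libraries, against 57.7, 67.8 and 63.8% in control libraries. Itgb5 made nearly all the rest, 34.6% ± 6.1 in treated and 36.9% ± 5.1 in control libraries. The groups overlapped for both, each with an exact two-sided permutation p of 0.7. Itga5 per length stood at 0.0391, 0.0351 and 0.0253 of Itgb1 in treated libraries, against 0.342, 0.235 and 0.275 in control libraries. Itgav per length stood at 0.0888, 0.0812 and 0.0732 of Itgb1 in treated libraries, against 0.136, 0.131 and 0.139 in control libraries. Both ratios were lower in every treated library. With TMM the log2 fold changes were 0.17 for Itgav, 0.92 for Itgb1 and −2.21 for Itga5. With the length trend taken out they were 1.05, 0.96 and −1.94. The change of Itgav was then no longer below that of Itgb1, while that of Itga5 still was.

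**Figure D2:**
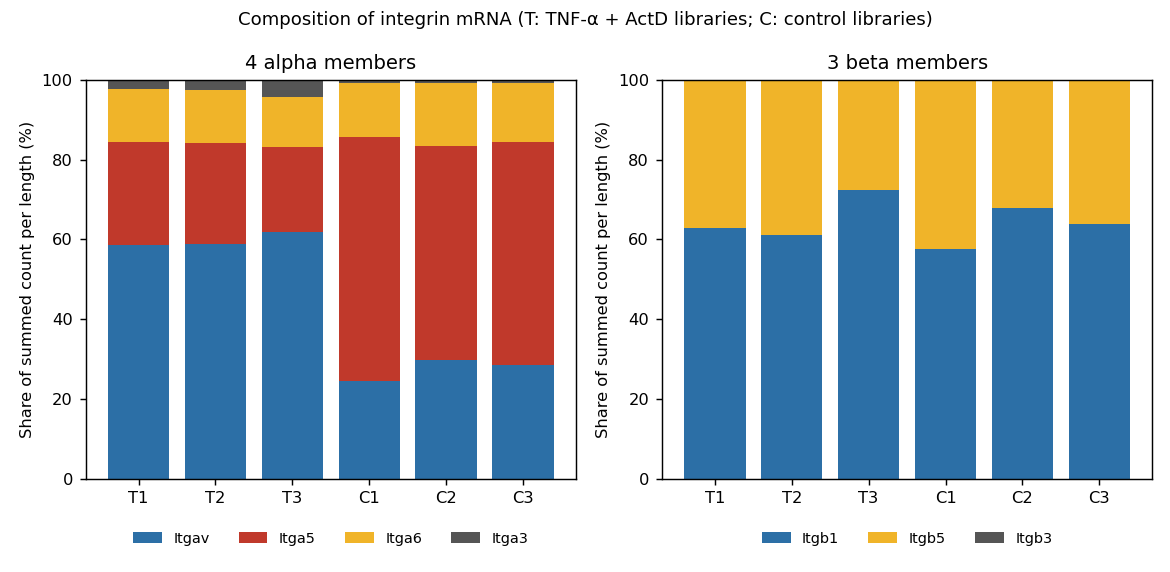
Share (%) of each member in the summed count per length of the 4 alpha members (left) and the 3 beta members (right), for treated libraries T1 to T3 and control libraries C1 to C3. Itgav is the widest alpha band at 58.6 to 61.8% in treated libraries, Itga5 at 53.5 to 61.4% in control libraries, and the beta bands overlap between the groups.

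Over the whole integrin family, subunits outside the 9 took up part of the sum. Among all alpha genes Itgav made 43.0% ± 2.5 in treated and 25.7% ± 2.7 in control libraries, and Itga5 made 17.4% ± 1.4 and 53.2% ± 3.5 (SD, n = 3 each). Itga7, a laminin receptor subunit best known in muscle and picked out here after its values were seen, made 17.1% ± 2.0 in treated and 2.43% ± 0.47 in control libraries. It had 461, 438 and 457 counts in treated libraries, against 243, 149 and 214 in control libraries, so its raw counts were higher too. Among all beta genes, Itgb7, the partner of alpha 4 and alpha E on lymphocytes, made 19.4% ± 4.0 in treated and 11.6% ± 1.6 in control libraries.

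Every receptor change was read against the scaling and against gene length. With ribosomal protein genes or mitochondrially encoded genes held equal, the median of all genes moved by −2.38 and −2.15 and all 7 tested members were called lower. By library size alone 5 were called lower and 0 higher, Itgb1 and Itga3 being the uncalled ones. Differences from the median of all tested genes barely moved between scalings. A scaling shifts every gene and that median nearly alike, so this was fixed in advance and is not support for any change. Itga5 lay −2.03 from that median with TMM, −2.03 by library size alone and −2.03 with the ribosomal protein scale, and Itgb1 lay 1.10, 1.11 and 1.12 above it.

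**Figure D3:**
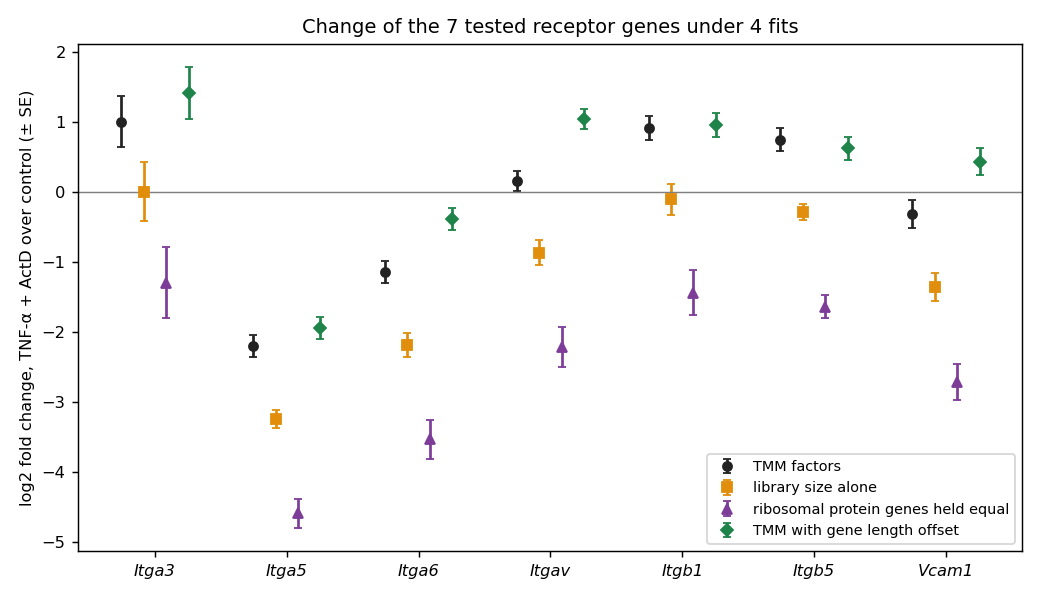
Log2 fold change (± SE) of the 7 tested receptor genes, treated over control, with TMM factors, library size alone, ribosomal protein genes held equal, and TMM with a gene length offset. Itga5 is below 0 in each fit, while Itgb1, Itgb5 and Itga3 are above 0 with TMM and below 0 with ribosomal protein genes held equal.

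Across all tested genes, fold change fell with length, with a median of 1.78 in the shortest and −1.27 in the longest of 10 equal groups by length. The members are 3553 to 10744 bases long. Itga5, in the group of 4739 to 5711 bases, lay at −2.21 where the median gene was at −0.64, and Itga6, in that of 7016 to 9336 bases, at −1.14 where it was at −1.10. Vcam1, in the same length group as Itga6, was at −0.31, and Itgav, in the longest group, at 0.17. With the length trend taken out, Itga5 stayed lower (−1.94, edgeR adjusted p = 2.1e-06) and Itgb1 and Itgb5 stayed higher (0.96 and 0.63).

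**Figure D4:**
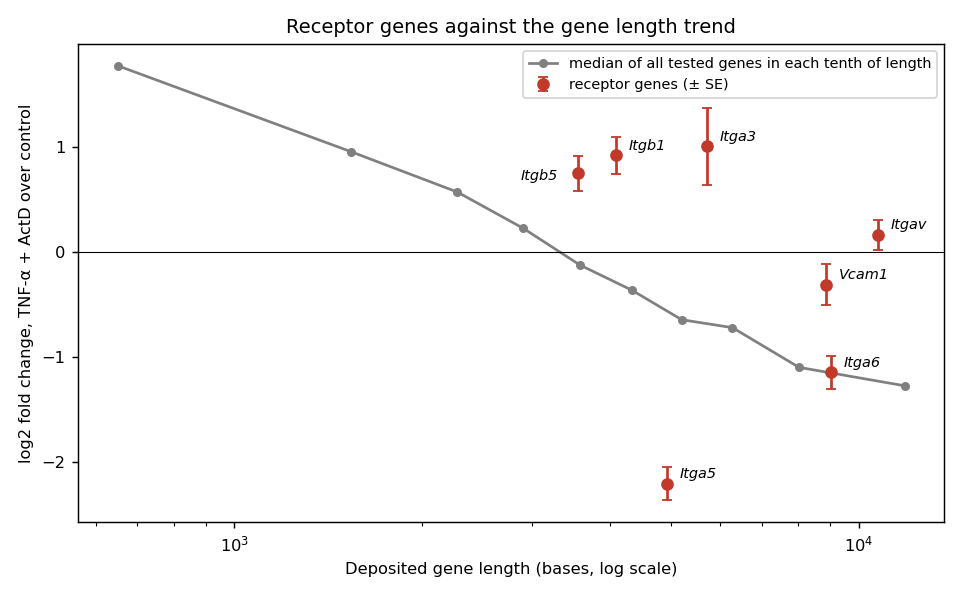
Log2 fold change, treated over control with TMM factors, against deposited gene length on a log axis, for the 7 tested receptor genes (± SE) and for the median of all tested genes in each of 10 length groups. Itga6 lies on the trend, Itga5 below it, and Itga3, Itgb1, Itgb5, Itgav and Vcam1 above it.

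Genes that work with these receptors were taken from lists, given here by their counts and medians on the TMM scale. Of all tested genes 34.6% were called higher and 40.2% lower, with a median of −0.18. By library size alone 2277 of the 13290 tested genes were called higher and 7924 lower. Of 12 other integrin subunits, 4 could be tested and all 4 were called higher, with a median of 2.32 that became −0.07 with ribosomal protein genes held equal. Itga2b, the platelet alpha subunit gene, rose by 2.48 ± 0.36, Itgb4, for the laminin-binding beta 4 subunit of epithelia, by 2.40 ± 0.23 and Itga10, for a collagen receptor subunit, by 2.24 ± 0.42. Itga2b and Itga10 averaged only 2.49 and 1.80 CPM over all libraries. None of the 4 was called with ribosomal protein genes or mitochondrial transcripts held equal. In limma on log2 FPKM 2 passed the filter, and both were called higher. Of 8 leukocyte integrin genes, 5 could be tested and Itgb7 was the single call. It had 170, 163 and 124 CPM in treated libraries, against 54.3, 39.2 and 44.3 CPM in control libraries. Itgb7 rose by 1.73 ± 0.18, a direction that turned with either gene class held equal. It was called lower with ribosomal protein genes held equal (−0.68, edgeR adjusted p = 0.004), but not with mitochondrially encoded genes held equal. The others, Itgal (0.45), Itgb2l (−0.51), Itgae (−0.78) and Itgb2 (−0.92), did not pass, with edgeR adjusted p-values of 0.074 to 0.36.

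Other cell adhesion molecules of the immunoglobulin type went both ways. Of 30 listed, 15 could be tested, 7 were called higher and 2 lower with a median of 0.22, or 3 and 9 with a median of −0.81 by library size alone. Bsg, for basigin, rose by 2.57 ± 0.20, Bcam, for a laminin-binding adhesion molecule, by 2.25 ± 0.54 and Igsf8, for a partner of tetraspanins, by 1.90 ± 0.18. The call of Bcam, at a mean of 1.23 CPM, was lost by library size alone. With ribosomal protein genes held equal Bcam and Igsf8 turned. There Igsf8 was called lower (−0.50, edgeR adjusted p = 0.023), and Bcam and Bsg were not called. The nectin genes Nectin1 and Nectin2, for cell junction molecules, fell by 2.83 ± 0.28 and 1.28 ± 0.23. Icam2, a further ICAM gene, had 28, 19 and 19 counts in treated libraries, against 79, 64 and 96 in control libraries, and did not pass (−0.79, edgeR adjusted p = 0.059), and Icam4 and Icam5 had too few counts to be tested.

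Adaptors of focal adhesions, the sites where integrins meet actin, had 11 of 45 tested members higher and 25 lower, or 4 and 34 by library size alone. Their median was −1.07, which is 0.90 below that of all genes and 0.12 below it once the length trend was taken out. With that trend taken out 15 adaptors were called higher and 19 lower, beside 3842 and 5246 of the 13290 tested genes. Signalling scaffolds led the falls: Tns3, for tensin 3, fell by 4.42 ± 0.28, Bcar1, for the docking protein p130Cas, by 4.32 ± 0.26 and its relative Nedd9 by 3.55 ± 0.23. Itgb3bp, named for binding beta 3 and also a centromere protein gene, rose by 2.12 ± 0.22. Fermt3, for the kindlin of blood cells, rose by 1.83 ± 0.28, and Parvg, for gamma parvin, by 1.74 ± 0.18. These 3 changes were below 0 with either gene class held equal. Of these values, only that of Parvg with ribosomal protein genes held equal was called lower (−0.67, edgeR adjusted p = 0.0094).

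Of 37 ligands and matrix proteins that integrins bind, 22 could be tested, 16 were called higher and 2 lower, or 5 and 6 by library size alone. The median was 1.05, which is 1.23 above that of all genes, but by library size alone the list median was 0.03, and −1.31 with ribosomal protein genes held equal. Mfge8, for a secreted ligand of alpha v integrins, rose by 2.56 ± 0.20 and Fbln5, for an elastic fibre protein, by 2.38 ± 0.16. Neither was called with ribosomal protein genes held equal. Cyr61, for the matricellular protein CCN1, fell by 0.94 ± 0.18. Fbn1, for fibrillin 1, fell by 0.44 ± 0.15 (edgeR adjusted p = 0.018). With the length trend taken out its change was 0.52, called higher. The Fbn1 call was lost with median-ratio or upper-quartile factors, among protein-coding genes alone and without control replicate 3.

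**Figure D5:**
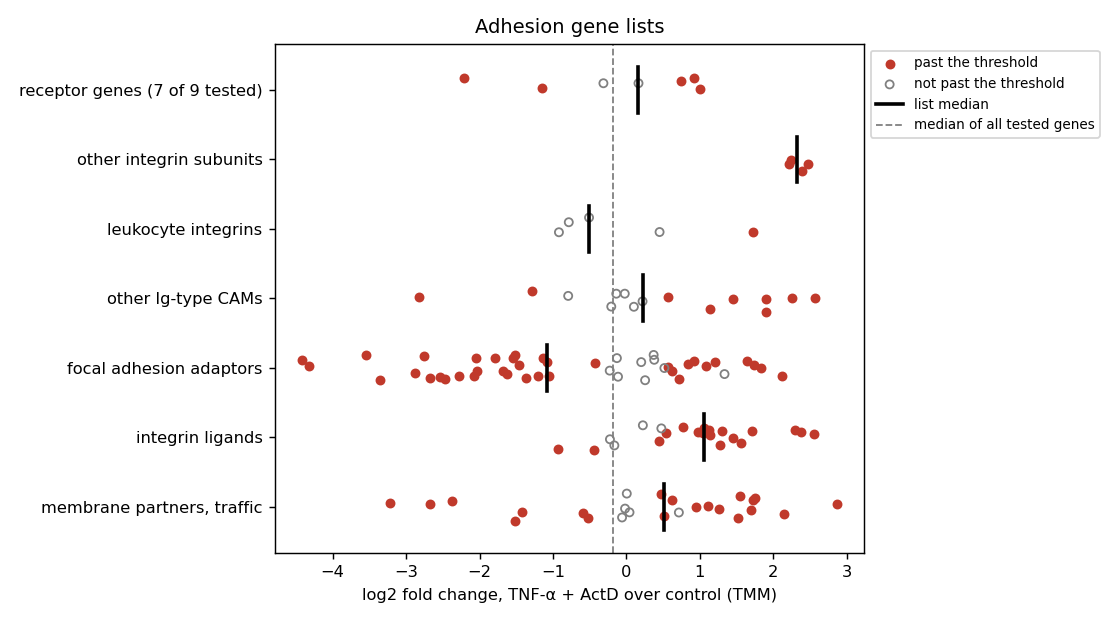
Log2 fold change, treated over control with TMM factors, of each tested gene in 7 groups of adhesion genes; filled points passed an edgeR adjusted p of 0.05, black bars are list medians and the dashed line is the median of all tested genes. Focal adhesion adaptors centre at −1.07 and integrin ligands at 1.05, or −2.11 and 0.03 by library size alone.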

How the data were processed

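RNA sequencing covered 6 libraries in 2 groups. The deposited table holds whole-number counts for 54532 genes, with gene length in bases (other annotation, per the file headers), and the second table holds FPKM made by the authors with a further constant per library. Per the submitters' processing notes, which give no roles, HISAT2 2.1.0, RSEM 1.3.1, DESeq2 1.24.0 and the builds mm10 and GRCm38 are named. Whether counting used strand was not stated there. Control columns carry the genotype name and were matched by number to the control titles.

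Genes kept by filterByExpr (13290 of 24708 with a count) were tested on the counts with edgeR 4.0.16 in R 4.3.3 (TMM, robust glmQLFit, glmQLFTest, Benjamini-Hochberg over all tested genes, threshold 0.05). A fold change's standard error is its log2 value over root F. Shares divide count by length and were compared with an exact permutation test. Scripts were tested on simulated data (200 genes changed, evenly up and down). That setting does not cover data in which 74.8% of tested genes are called. From each list up to 3 of the largest called rises and falls are named, if they average 1 CPM or more, and 1 gene the rule picked is not reported here singly. Members and lists were chosen with earlier results of these data known. Sequences came from RefSeq, exons from GENCODE M21 on GRCm38. Alternatives were other scalings, filters and tools (DESeq2 1.42.0, limma 3.58.1), a length offset (lowess, span 0.3), a replicate block and each library left out. Depth ran from 16056207 to 18036322 counts a library, and intervals cover counting error only. Figures used matplotlib 3.10.9.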

Additional observations from a re-analysis of the deposited data

How the results depend on the processing

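With TMM, 4604 genes were called higher and 5337 lower, 3 and 2 of the receptor genes, and 52 and 36 genes of the 6 adhesion lists. By library size alone 2277 genes, 0 receptors and 23 list genes were higher and 5 receptors and 65 list genes lower. With ribosomal protein genes held equal 251 genes, 0 receptors and 1 list gene were higher and 10944, 7 and 100 lower. With mitochondrially encoded genes held equal 334, 0 and 0 were higher and 10333, 7 and 88 lower. Scaling also moved the split of called genes from 46.3% higher to 22.3%, 2.24% and 3.13% in these 3 fits.

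Turns were tabulated for the receptors and the list genes named singly. A turn is a change of sign against TMM where the TMM value, the new value or both were called. Vcam1 went from −0.31 with TMM to 0.44 with the length offset, and to 0.42 with a replicate block added. None of these Vcam1 values was called, so it is not listed as a turn. Log2 changes that turned by library size alone among them were those of Itgav (−0.87), Itgb1 (−0.10) and Itgb5 (−0.29). With ribosomal protein genes held equal Itga3 (−1.30), Itgav (−2.21), Itgb1 (−1.44), Itgb5 (−1.64), Bcam (−0.16), Cd151 (−0.65), Cd82 (−0.25), Col1a2 (−0.66), Fermt3 (−0.62), Igsf8 (−0.50), Itga10 (−0.16), Itgb3bp (−0.29), Itgb7 (−0.68) and Parvg (−0.67) turned. With mitochondrially encoded genes held equal Itga3 (−1.16), Itgav (−1.98), Itgb1 (−1.23), Itgb5 (−1.43), Cd151 (−0.41), Cd82 (−0.033), Col1a2 (−0.46), Fermt3 (−0.31), Igsf8 (−0.27), Itgb3bp (−0.0025), Itgb7 (−0.44) and Parvg (−0.43) turned. Fbn1 turned to 0.52 with the length offset, with or without a replicate block. The turns of the other genes came with another scaling, and that of Fbn1 with the length offset on TMM factors.

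The labels do not tell whether the replicate numbers pair the libraries. Deviations of same-numbered libraries from their group means correlated at 0.22, −0.14 and 0.03, which cannot decide this with 3 libraries in each group. With a replicate block 4450 genes were higher and 5411 lower, and no receptor call changed. With the length offset and a replicate block together 1 receptor was called lower. Leaving out each library in turn gave 2 to 3 receptors higher and 2 to 3 lower.

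The share of Itga5 in the alpha sum, treated minus control, was −32.8 percentage points, or −26.1 from counts not divided by length. That of Itga6 was −1.78, or −5.55 from counts not divided by length and −4.45 over all alpha genes. That of Itgav was 32.2, or 17.3 over all alpha genes. Depth limits Icam1 and Itgb3, with 6 and 2 counts over all libraries, and Itga3.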

Other observations

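Membrane proteins that travel with integrins and genes of integrin recycling were not described above. Of 27 listed, 25 could be tested, and 13 were called higher and 7 lower with a median of 0.52 on the TMM scale. Of all tested genes 34.6% were called higher and 40.2% lower. By library size alone 6 of the list were called higher and 14 lower, with a median of −0.52. The tetraspanin genes Cd63, Cd82 and Cd151, whose products associate with integrins in the membrane, rose by 2.87 ± 0.28, 2.15 ± 0.19 and 1.76 ± 0.17 on the log2 scale. With mitochondrially encoded genes held equal Cd63 was no longer called, and Cd82 and Cd151 were below 0 with either gene class held equal. Of these negative values, only that of Cd151 with ribosomal protein genes held equal was called lower (−0.65, edgeR adjusted p = 0.0054). Arf6, for a small GTPase of integrin recycling, fell by 3.23 ± 0.18, Snx27, for an endosomal sorting nexin, by 2.67 ± 0.20 and Numb, for an endocytic adaptor that binds beta tails, by 2.38 ± 0.34. These falls were called under every scaling tried.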
